A study of Mus musculus with 6 samples.

Results

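The genes described here are the creatine kinases, the muscle isoforms of the glycogen and glycolysis enzymes, the muscle AMP deaminase and myoglobin: Ckm, Ckb, Ckmt1, Ckmt2, Pygm, Pgam2, Eno3, Pfkm, Ampd1 and Mb. These 10 genes were chosen by symbol, among the 55414 gene identifiers of the count table. RNA was measured by sequencing in C2C12 cells, a wild-type mouse myoblast line kept in serum-rich growth medium and transfected with Lipofectamine 3000. In 3 libraries the cells had received an siRNA against Usf2 (siUsf2 1 to 3), and in the other 3 a negative-control siRNA (siControl 1 to 3). The series asks which genes are affected by knocking down USF2, a transcription factor that binds E-boxes. The labels do not say whether replicates were separate cultures, so a p-value measures only how these libraries scatter, and that scatter may be technical.

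Muscle fibres spend ATP in bursts, and several systems refill it. Creatine kinase moves a phosphate between ATP and creatine, and the muscle form (Ckm) takes over from the brain form (Ckb) as myoblasts become muscle. Glycogen phosphorylase releases glucose units that feed glycolysis, AMP deaminase drains AMP into the purine nucleotide cycle, and myoglobin binds oxygen.

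The library labelled siUsf2 3 stood apart from the others in depth and composition. It held 3414565 counts, against 14932880 to 17715250 in the other 5 libraries, and 0.974% of its counts fell on pseudogenes, against 14.0% to 15.3% elsewhere. Usf2 itself stood at 17.1, 15.3 and 30.8 CPM (reads of a gene scaled to the same total in each library) in siUsf2 1 to 3, against 26.2, 31.2 and 23.0 CPM in siControl 1 to 3. The level in the library labelled siUsf2 3, from 105 counts, was thus inside the siControl range, unlike that of siUsf2 1 and 2. With its other depth and composition, its CPM values may not compare directly with the rest. How far the knockdown reached in that library was not tested. The members' results are therefore given for all 6 libraries and again for the 5 without it. The log2 fold change of Usf2 was -0.40 over 6 libraries (edgeR adjusted p = 0.702) and -0.74 over 5 (edgeR adjusted p = 0.000643). The Usf2 level was known when the library labelled siUsf2 3 was set apart. The 5-library value of Usf2 is therefore no independent check of the knockdown. Listed markers of other cell types stayed low: the adipocyte and hepatocyte lists summed to at most 0.443 CPM in any library, the macrophage list to at most 3.37 CPM, the endothelial list to at most 4.69 CPM, the glia list to at most 6.74 CPM and the red cell list to at most 2.05 CPM. The neuron list summed to 42.2 to 52.3 CPM in the siUsf2 libraries and 34.6 to 37.7 CPM in the siControl libraries, mostly from Stmn2, with Snap25 at 0 throughout.

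Without the library labelled siUsf2 3, the members with enough reads to test were lower in siUsf2 cells, with Mb, Ckm, Ckb and Pygm showing the largest differences among them and Pfkm the smallest. Of the 10 members, 7 passed the filter on low counts. Ckmt1, Ckmt2 and Ampd1 did not, and Mb passed mainly through its siControl libraries, so a count over the 7 is no support for a direction. All 7 passed the edgeR test (adjusted p below 0.05) in the lower direction, where 6.4% of the 17217 genes tested were called lower and 4.97% higher. Their median log2 fold change was -1.83, beside -0.01 over all genes tested. The members were chosen with earlier results of these data known, so the median is no support for a direction either. In bulk RNA, fewer cells of a type and less RNA per cell cannot be told apart.

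With all 6 libraries, edgeR called 0 of the 7 members, where 0.042% of 16662 genes were called lower. At an unadjusted p below 0.05 there were 4 members, among 1753 of all genes tested. DESeq2 called 4 of the 7 (Ckm, Pygm, Pgam2 and Mb), where it called 2.48% of genes lower, and limma-voom called 3, where it called 0.51% of genes lower. With pseudogene counts added to their parents edgeR called 2, Ckm and Mb (adjusted p = 0.0143 and 0.0411), where 1.02% of genes were called lower. The median log2 fold change of the members was -1.21, beside -0.01 over all genes tested.

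**Figure D1:**
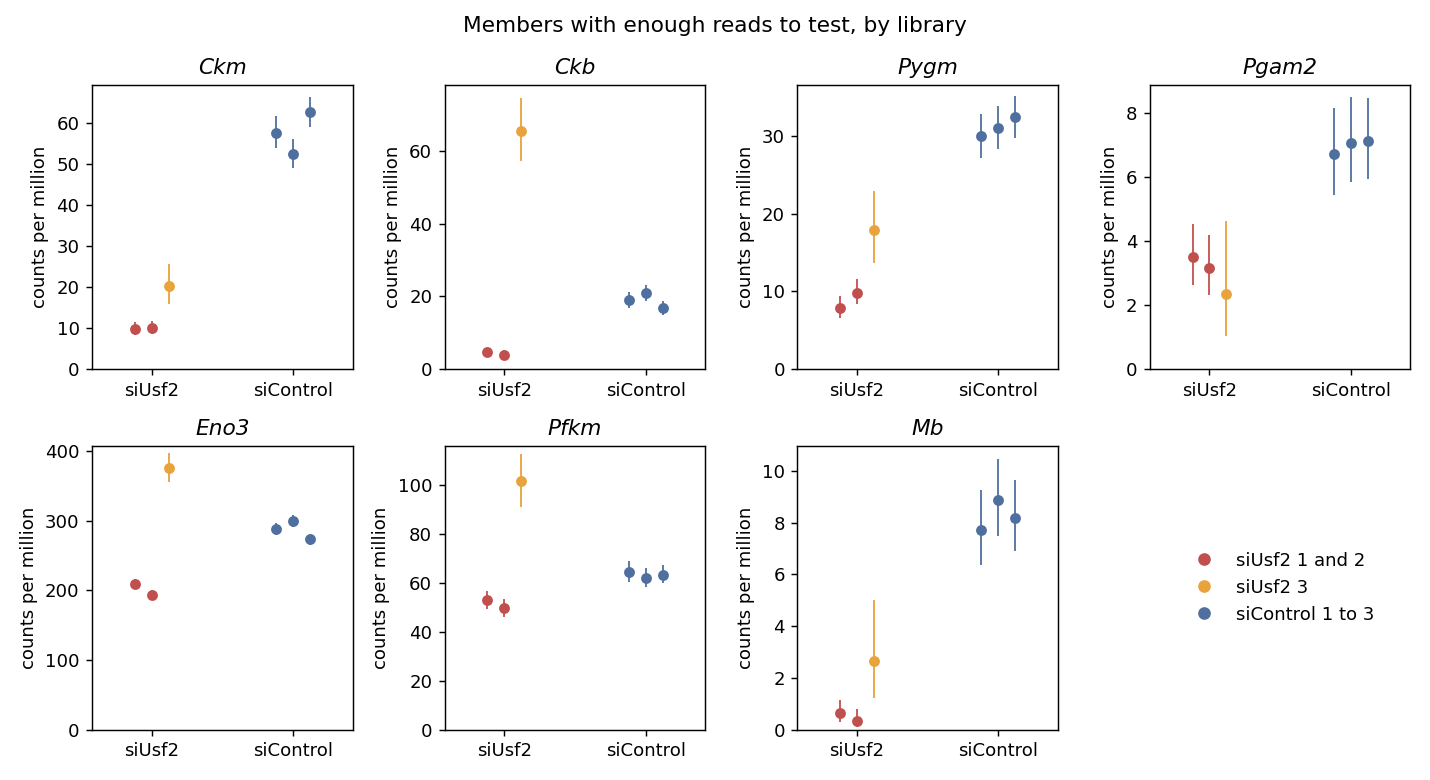
CPM of the 7 tested members in each library (points), with exact 95% Poisson intervals that cover counting error only; siUsf2 libraries stand left of siControl libraries in each panel. siUsf2 1 and 2 lie below every siControl library for each gene shown, while the library labelled siUsf2 3 lies below them for Ckm, Pygm, Pgam2 and Mb and above them for Ckb, Eno3 and Pfkm.

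Over the 7 tested members, siUsf2 1 and 2 both lay below every siControl library for all 7, a pattern shown by 19.5% of genes. All 3 siUsf2 libraries lay below for 4 of them, Ckm, Pygm, Pgam2 and Mb, a pattern shown by 11.2% of genes, and the library labelled siUsf2 3, taken by itself, lay below for 42.1% of genes. The library labelled siUsf2 3 lay above every siControl library for the other 3, Ckb, Eno3 and Pfkm, where 39.6% of genes did so.

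Among the creatine kinases, Ckm makes the muscle-type cytosolic subunit and lies on chr7:19404776-19422841 (GRCm38, plus strand). Ckm held 9.80, 10.0 and 20.2 CPM in siUsf2 1 to 3, against 57.7, 52.4 and 62.6 CPM in siControl 1 to 3. The siUsf2 and siControl libraries did not overlap, with the library labelled siUsf2 3 nearer to the siControl level than the other two. Ckm averaged 9.92 ± 0.174 CPM in siUsf2 1 and 2 (SD, n = 2) and 57.6 ± 5.09 CPM in siControl (SD, n = 3), and its log2 fold change was -2.55 ± 0.13 (SE), with an adjusted p of 6.16e-15 by edgeR. Over all 6 libraries the log2 fold change was -2.18 ± 0.30 (SE), with an adjusted p of 0.0775 by edgeR. By gene bounds it overlaps the antisense gene A930016O22Rik. The strand setting of the counting is not given, so reads from any stretch the 2 share cannot be told apart. Whether their exons overlap was not checked.

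Ckb makes the brain-type cytosolic subunit and lies on chr12:111669361-111672338 (minus strand). Ckb held 4.68, 3.95 and 65.6 CPM in siUsf2 1 to 3, against 19.0, 20.9 and 16.8 CPM in siControl 1 to 3. siUsf2 1 and 2 were the lowest and the library labelled siUsf2 3 the highest of all 6. By edgeR its log2 fold change over 5 libraries was -2.14 ± 0.19 (SE, adjusted p = 9.29e-10), and over 6 it was 0.28 ± 1.15 (SE, adjusted p = 0.945).

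Ckb shares its sequence with Gm12892, a processed pseudogene of 1 exon on chr4:122008193-122009338, and reads of the 2 may be split by the counting. Gm12892 took 254, 275 and 0 counts in siUsf2 1 to 3, against 841, 965 and 981 in siControl 1 to 3. The copy thus held 77.4% and 82.3% of the summed counts in siUsf2 1 and 2 and 74.3% to 76.8% in siControl, but none in the library labelled siUsf2 3. Summed, Ckb and its copy held 20.7, 22.4 and 65.6 CPM in siUsf2 1 to 3, against 75.9, 81.2 and 72.1 CPM in siControl 1 to 3. With the copy added, all 3 siUsf2 libraries lay below every siControl library, and the library labelled siUsf2 3 lay close to them. The summed log2 fold change was -1.84 ± 0.11 over 5 libraries (SE, adjusted p = 2.02e-14 by edgeR) and -1.17 ± 0.47 over 6 (SE, adjusted p = 0.386 by edgeR).

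**Figure D2:**
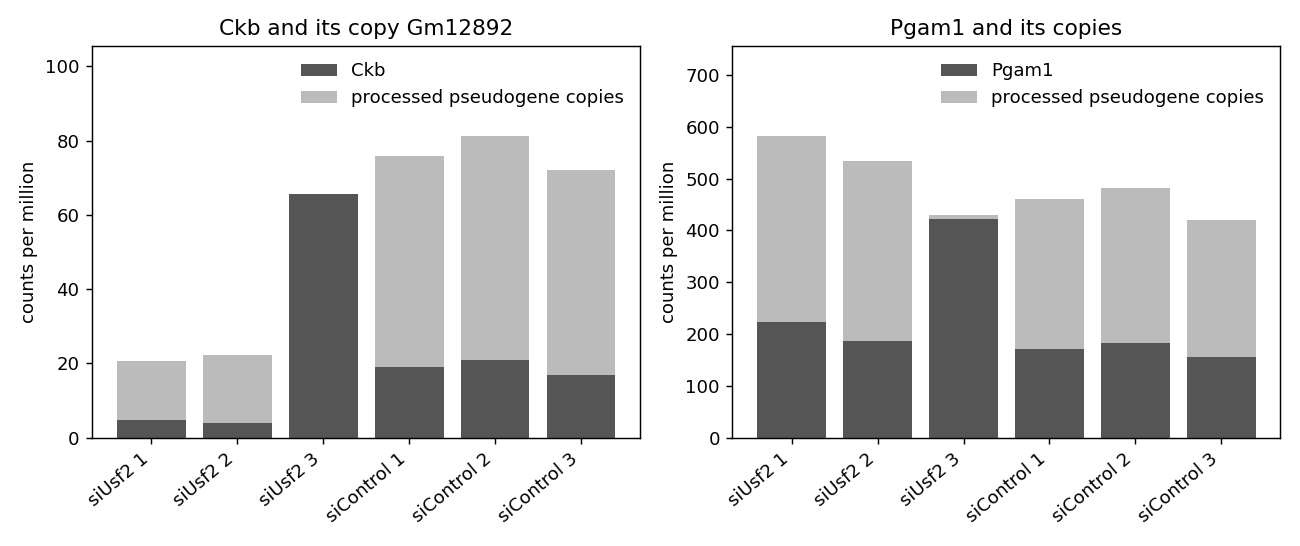
CPM in each library of Ckb (left) and Pgam1 (right), dark, with their processed pseudogene copies stacked above in light grey. In the library labelled siUsf2 3 the copies hold 0% of the Ckb sum and 1.71% of the Pgam1 sum, against 61.7% to 82.3% in the other 5 libraries.

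The mitochondrial creatine kinases were near or at the detection limit. Ckmt1, the form of many tissues, took 0 counts in all 6 libraries, which allows up to 0.190, 0.201 and 0.879 CPM in siUsf2 1 to 3 and 0.203, 0.187 and 0.169 CPM in siControl 1 to 3 (3 counts each). Ckmt2, the sarcomeric form, took 0 counts in each siUsf2 library, against 5, 0 and 4 in siControl 1 to 3. A difference in either was not detectable at this depth.

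Among the enzymes of glycogen and glycolysis, Pygm makes muscle glycogen phosphorylase, the enzyme missing in McArdle disease, and lies on chr19:6384399-6398459 (plus strand). Pygm held 7.84, 9.84 and 17.9 CPM in siUsf2 1 to 3, against 29.95, 31.0 and 32.4 CPM in siControl 1 to 3. The siUsf2 and siControl libraries did not overlap. Pygm fell by 1.83 ± 0.15 on the log2 scale over 5 libraries (SE), with an adjusted p of 1.6e-10 by edgeR, and the value over 6 was -1.46 ± 0.30 (SE), with an adjusted p of 0.183 by edgeR.

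Pgam2 makes the muscle phosphoglycerate mutase, which shifts the phosphate of 3-phosphoglycerate late in glycolysis, and lies on chr11:5801640-5803733 (minus strand). Pgam2 held 3.48, 3.15 and 2.34 CPM in siUsf2 1 to 3, against 6.69, 7.06 and 7.11 CPM in siControl 1 to 3. It was the only tested member whose lowest value came from the library labelled siUsf2 3, where it rests on 8 counts (95% Poisson interval 1.01 to 4.62 CPM). By edgeR its log2 fold change over 5 libraries was -1.08 ± 0.24 (SE, adjusted p = 0.00273), and over 6 it was -1.21 ± 0.23 (SE, adjusted p = 0.161).

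Eno3, the muscle enolase, was the most abundant member and lies on chr11:70657202-70662513 (plus strand). Eno3 held 209, 193 and 376 CPM in siUsf2 1 to 3, against 288, 299.5 and 274 CPM in siControl 1 to 3. siUsf2 1 and 2 were the lowest, and the library labelled siUsf2 3 the highest. By edgeR its log2 fold change over 5 libraries was -0.53 ± 0.09 (SE, adjusted p = 7.17e-05), and over 6 it was -0.19 ± 0.25 (SE, adjusted p = 0.857).

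Pfkm, the muscle phosphofructokinase subunit that commits sugar to glycolysis, changed least. Pfkm (chr15:98092589-98132451, plus strand) held 52.9, 49.5 and 101 CPM in siUsf2 1 to 3, against 64.4, 61.85 and 63.3 CPM in siControl 1 to 3. The 3 siControl libraries lay close together, siUsf2 1 and 2 below them and the library labelled siUsf2 3 above. By edgeR its log2 fold change over 5 libraries was -0.32 ± 0.10 (SE, adjusted p = 0.0307), and over 6 it was 0.05 ± 0.27 (SE, adjusted p = 0.955). The 5-library call was lost without siControl 1 (edgeR adjusted p = 0.112) or siControl 2 (0.0539), and with upper-quartile normalization (0.0608). It was also lost with limma on log2(CPM + 1) and no filter (limma adjusted p = 0.0776). Leaving out siUsf2 1 or siUsf2 2 ended it too, with log2 fold changes of -0.35 and -0.28 from 1 remaining siUsf2 library. By gene bounds Pfkm overlaps Senp1 on the other strand and Gm26513. Reads from any stretch they share cannot be told apart, and whether exons are shared was not checked.

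Ampd1, the muscle AMP deaminase, took 0, 3 and 0 counts in siUsf2 1 to 3, against 1, 2 and 5 in siControl 1 to 3. It was too low to test. Mb, myoglobin, lies on chr15:77015487-77050670 (minus strand) and overlaps Gm49540 and Apol6, both on the other strand. Mb held 0.632, 0.335 and 2.64 CPM in siUsf2 1 to 3, against 7.71, 8.87 and 8.19 CPM in siControl 1 to 3. These siUsf2 values rest on 10, 5 and 9 counts, against 114, 142 and 145 in siControl, and the 2 sets did not overlap. Mb fell by 4.07 ± 0.34 on the log2 scale over 5 libraries (SE), with an adjusted p of 3.54e-10 by edgeR, and the value over 6 was -3.22 ± 0.69 (SE), with an adjusted p of 0.194 by edgeR. On the log2(CPM + 1) scale, which understates the change of low genes, the 5-library value was -2.65.

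**Figure D3:**
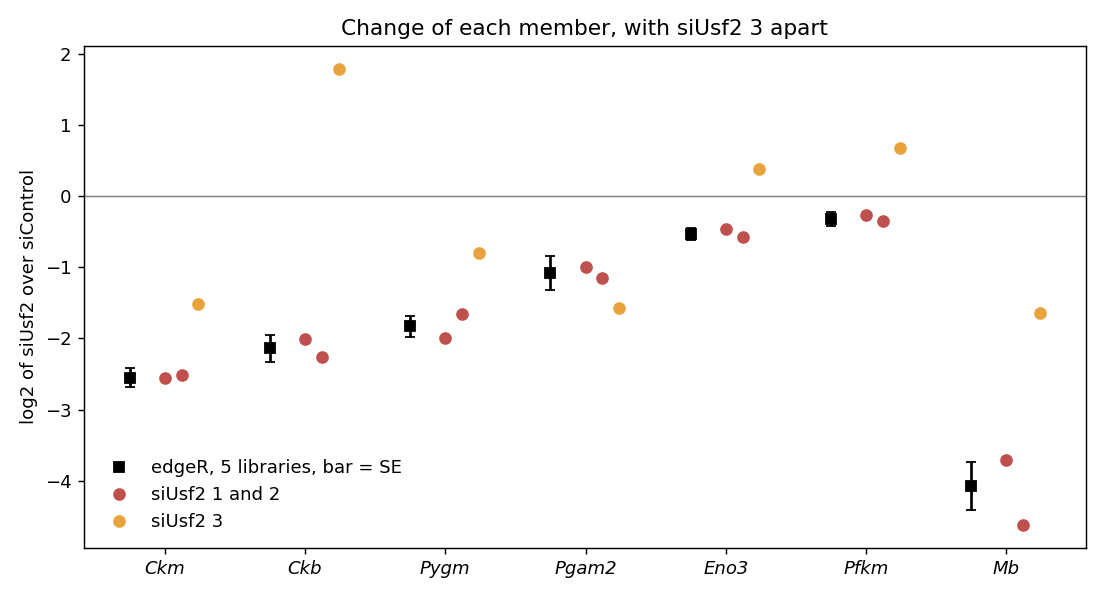
Log2 of siUsf2 over the mean of the 3 siControl libraries, for each siUsf2 library (circles) beside the edgeR log2 fold change of the 5 libraries with its SE (black squares). siUsf2 1 and 2 lie below 0 for every gene shown, and the library labelled siUsf2 3 lies above 0 for Ckb, Eno3 and Pfkm.

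Levels can be compared between genes only per length, here as CPM per kilobase of annotated exon. On this scale the siControl levels (mean ± SD, n = 3) were highest for Eno3 at 165 ± 7.44, followed by Ckm at 19.8 ± 1.75 and Pfkm at 18.9 ± 0.388, which did not differ beyond their spread. Pygm stood at 9.67 ± 0.382, Pgam2 at 8.28 ± 0.272, Ckb at 6.52 ± 0.709 and Mb at 5.53 ± 0.392. The place of Ckb depends on its copy: with the counts of Gm12892 added, per kilobase of Ckb exon, it stood at 7.44 in siUsf2 1 and 2 and at 26.4 ± 1.56 in siControl, above Ckm in both and above Pfkm in siControl. In siUsf2 1 and 2 the mean per kilobase was 116 for Eno3, 15.3 for Pfkm, 3.94 for Pgam2, 3.41 for Ckm, 2.75 for Pygm, 1.49 for Ckb and 0.324 for Mb. By these means Ckm stood below Pgam2 in siUsf2 1 and 2, where Pgam2 rests on 55 and 47 counts, and above it in siControl. The length merges the exons of all annotated transcripts: 2913 bases for Ckm, 2895 for Ckb and 840 for Pgam2. The transcripts present were not measured, and with their lengths the order of genes may differ.

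Each muscle enzyme has a counterpart used by many tissues, and the ratio of the 2 within a library does not depend on the total count. Because copies take many of the counterparts' reads, the ratios below include the counts of processed pseudogenes. With them, the log2 ratio of Pygm over Pygb plus Pygl, the brain and liver phosphorylases, was -3.16, -2.71 and -2.21 in siUsf2 1 to 3, against -0.80, -0.74 and -0.51 in siControl 1 to 3. The log2 ratio of Pgam2 over Pgam1, the widespread mutase, was -7.37, -7.39 and -7.43 in siUsf2 1 to 3, against -6.10, -6.09 and -5.88 in siControl 1 to 3. The log2 ratio of Pfkm over Pfkl plus Pfkp, the liver and platelet subunits, was -1.89, -1.97 and -1.82 in siUsf2 1 to 3, against -1.46, -1.50 and -1.40 in siControl 1 to 3. For these 3 ratios no siUsf2 library reached the siControl range.

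The log2 ratio of Ckm over Ckb with its copy was -1.08, -1.15 and -1.69 in siUsf2 1 to 3, against -0.40, -0.63 and -0.20 in siControl 1 to 3. Without the copy's counts it was 1.06, 1.34 and -1.69 in siUsf2 1 to 3, against 1.60, 1.33 and 1.90 in siControl 1 to 3, and siUsf2 2 lay inside the siControl range. The log2 ratio of Eno3 over Eno1 plus Eno1b, the widespread enolase and its retrotransposed form, was -3.37, -3.42 and -2.24 in siUsf2 1 to 3, against -2.85, -2.87 and -2.81 in siControl 1 to 3. For enolase the library labelled siUsf2 3 lay above siControl and the other 2 below. From deposited counts alone, the log2 ratio of Pgam2 over Pgam1 was -5.99, -5.87 and -7.41 in siUsf2 1 to 3, against -4.66, -4.68 and -4.45 in siControl 1 to 3. That of Eno3 was then -2.56, -2.62 and -1.88 in siUsf2 1 to 3, against -2.08, -2.10 and -1.97 in siControl 1 to 3. For Pgam2 and Eno3 the same siUsf2 libraries lay below siControl with and without the copies, whereas for Ckm over Ckb siUsf2 2 did so only with them.

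Of 6 ratios computed with the copies, the 4 whose siUsf2 and siControl libraries did not overlap gave an exact two-sided permutation p of 0.1, the smallest that 3 against 3 allows (0.15 adjusted over the 6). From deposited counts alone 3 ratios did so, all but Ckm over Ckb of those 4, again with an exact p of 0.1 (0.2 adjusted). Over 5 libraries the smallest exact p is 0.2. The ratio of Ampd1 to Ampd2 plus Ampd3 rests on 5 counts or fewer of Ampd1 in each library, and Ckmt1 at 0 left no ratio for the mitochondrial forms.

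**Figure D4:**
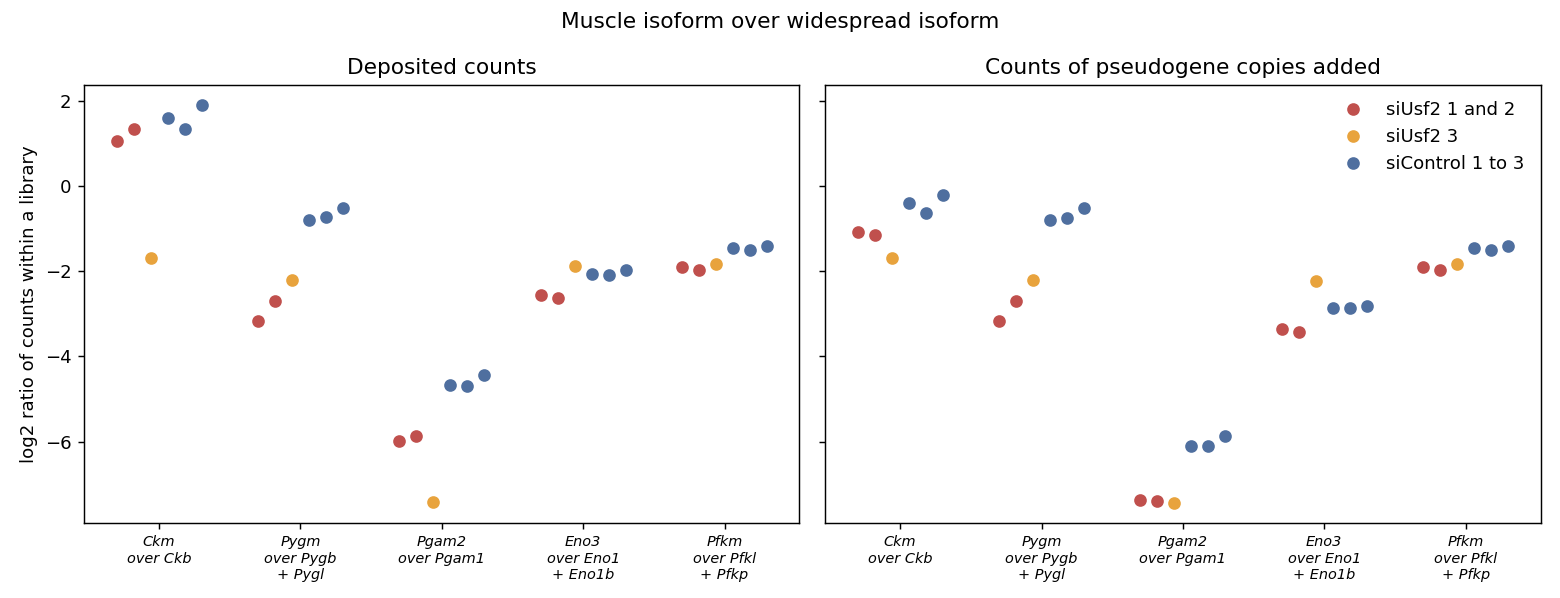
Log2 ratio of the muscle isoform's counts to the widespread isoform's in each library, from deposited counts (left) and with pseudogene counts added (right). On the right, all 3 siUsf2 libraries lie below all siControl libraries for Ckm, Pygm, Pgam2 and Pfkm, and the library labelled siUsf2 3 lies above them for Eno3.

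Apart from Ckb, no counterpart passed in the lower direction in the 5 libraries, and 2 rose. Pygb rose, at 70.3 and 64.4 CPM in siUsf2 1 and 2, against 52.1, 51.8 and 46.1 CPM in siControl 1 to 3 (log2 fold change 0.42, edgeR adjusted p = 0.00474, and adjusted p = 0.12 without siUsf2 1). Ampd3, the AMP deaminase of red cells and other tissues, also rose, at 130 and 122 CPM in siUsf2 1 and 2, against 83.2, 84.8 and 86.3 CPM in siControl 1 to 3 (log2 fold change 0.56, edgeR adjusted p = 4.17e-05). Pgam1 had a log2 fold change of 0.26 (edgeR adjusted p = 0.0668), which became 0.28 with its copies' counts (edgeR adjusted p = 0.0236). The log2 fold changes of Pfkp at 0.24, Pfkl at 0.10, Ampd2 at 0.07, Eno1b at 0.02 and Eno1 at -0.02 did not pass. Pfkp passed without siControl 3 (edgeR adjusted p = 0.0142). Pygl was too low to test.

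Other genes of the same pathways, taken from 5 lists, held calls in both directions in the 5 libraries, where 6.4% of all genes were called lower and 4.97% higher. The counts below are small and give no result about a list as a whole. Of 3 other genes of creatine supply, all tested, 2 fell: Gatm and Gamt, which make creatine in sequence. Gamt held 12.3 and 14.1 CPM in siUsf2 1 and 2, against 24.1, 24.2 and 18.0 CPM in siControl 1 to 3 (log2 fold change -0.75, edgeR adjusted p = 0.00128). Gatm had a log2 fold change of -0.47 (edgeR adjusted p = 0.00456), lost without siUsf2 1 (0.158). In the library labelled siUsf2 3, Gamt stood at 34.0 CPM, above every siControl library.

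Of 24 other genes of glycogen metabolism, 20 were tested, of which 1 fell and 2 rose. Gys1, the muscle-type glycogen synthase, held 68.2 and 61.9 CPM in siUsf2 1 and 2, against 103, 97.3 and 95.1 CPM in siControl 1 to 3 (log2 fold change -0.61, edgeR adjusted p = 2.98e-05). Beside Pygb, the gene that rose was Ppp1r3b, a subunit that targets protein phosphatase to glycogen (log2 fold change 0.75, edgeR adjusted p = 0.0128). That call was lost without siControl 1 (edgeR adjusted p = 0.0735), siControl 2 (0.0586) or siUsf2 1 (0.111). The median log2 fold change of the 20 was 0.01.

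Of 25 other genes of glycolysis, 24 were tested, of which 1 fell and 4 rose, with a median log2 fold change of 0.10. Pfkfb3, which makes the activator of phosphofructokinase, held 26.0 and 23.8 CPM in siUsf2 1 and 2, against 14.7, 10.2 and 14.0 CPM in siControl 1 to 3 (log2 fold change 0.93, edgeR adjusted p = 7.95e-05). Eno2, the neuronal enolase, had a log2 fold change of 0.69 (adjusted p = 4.99e-05 by edgeR), and Gpd2, the mitochondrial glycerol phosphate dehydrogenase, of 0.51 (edgeR adjusted p = 0.000212). Gapdh and Gpi1 were called on their own counts. Of the siControl counts summed over each gene and its pseudogene copies, the copies held 98.2% for Gapdh and 81.4% for Gpi1. Gapdh had a log2 fold change of -0.35 (edgeR adjusted p = 0.0245), and with the copies' counts it was -0.26 (edgeR adjusted p = 0.0385). The call without the copies was lost when either siUsf2 1 (0.121), siUsf2 2 (0.222), siControl 1 (0.125) or siControl 2 (0.0549) was left out. Gpi1 had a log2 fold change of 0.30 (edgeR adjusted p = 0.039), which with the copies' counts was 0.13 (edgeR adjusted p = 0.319). It was also lost without siUsf2 1 (0.0788), siUsf2 2 (0.354), siControl 1 (0.0512) or siControl 2 (0.0676), and with DESeq2 (0.0508).

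Of 13 other genes of the purine nucleotide cycle and adenylate metabolism, 12 were tested and 3 rose. Beside Ampd3, these were Nt5e, which makes adenosine from AMP outside the cell, and Ak4, a mitochondrial adenylate kinase. Nt5e held 37.9 and 37.7 CPM in siUsf2 1 and 2, against 20.9, 20.4 and 19.4 CPM in siControl 1 to 3 (log2 fold change 0.89, edgeR adjusted p = 2.42e-06). Ak4 had a log2 fold change of 0.64 (edgeR adjusted p = 0.0149), lost without siUsf2 1 (0.119), siUsf2 2 (0.0766) or siControl 2 (0.0579). Of 5 other genes listed with Mb for globins and fatty acid handling, 3 were tested, of which 1 fell and 1 rose. Cd36, a fatty acid carrier, had a log2 fold change of -1.11 (edgeR adjusted p = 0.0304), lost when any of siUsf2 1, siUsf2 2, siControl 1 or siControl 3 was left out (0.0756 to 0.142), and with DESeq2 (0.0546), limma-voom (0.072) or a replicate block (0.0712). Lpl, lipoprotein lipase, rose by 0.36 (edgeR adjusted p = 0.00451), lost without siUsf2 1 (0.0788). Over all 6 libraries, none of the genes named from these lists passed, and the lowest edgeR adjusted p among them was 0.13, for Nt5e. DESeq2 called 7 of these genes over 6 libraries: Gatm lower, and Pygb, Eno2, Pfkfb3, Nt5e, Ampd3 and Ak4 higher. Among all 16662 genes it called 410 lower and 296 higher. The named genes were picked largely through their calls over 5 of these same 6 libraries, so the DESeq2 calls are no fresh check. At an unadjusted edgeR p below 0.05 over 6 libraries the 5 lists held 1, 2, 4, 4 and 1 other genes, in the order given. These were among 3, 20, 24, 12 and 3 tested, beside 1753 of all 16662 genes tested.

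**Figure D5:**
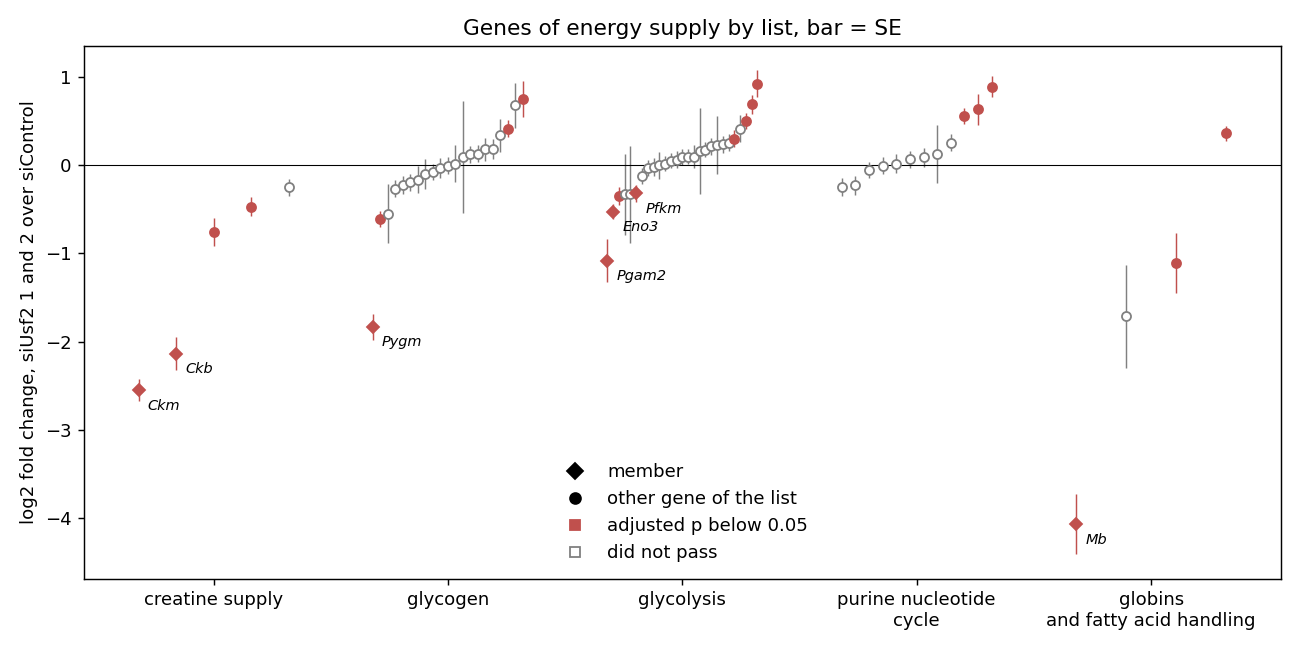
Log2 fold change (siUsf2 1 and 2 over siControl, edgeR, bars are SE) of each tested gene of 5 pathway lists, with the members as diamonds. The members lie from -4.07 to -0.32, and the other genes of the lists lie on both sides of 0.

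Markers of differentiated muscle cells, like the 7 tested members, were lower in siUsf2 1 and 2. In the library labelled siUsf2 3 each marker of differentiated cells listed here lay below every siControl library, while Ckb, Eno3 and Pfkm lay above. A list of 7 markers of differentiated muscle cells (Myog, Mymk, Myh3, Acta1, Tnni1, Myl4 and Actc1) summed to 876 to 1763 CPM in the siUsf2 libraries, against 4025 to 4334 CPM in the siControl libraries, and all 7 passed in the lower direction by edgeR over 5 libraries, beside 6.4% of all genes. Over 6 libraries edgeR called 0 of the 7 (adjusted p 0.0694 to 0.187), with 7 at an unadjusted p below 0.05, beside 1753 of all 16662 genes. DESeq2 called 7 and limma-voom 5, all lower, where they called 2.48% and 0.51% of all genes lower. The library labelled siUsf2 3 held 1763 CPM of them, below every siControl library. None of these markers was at 0 in all libraries. A list of 6 myoblast markers summed to 2446 to 3364 CPM in the siUsf2 libraries, against 3132 to 3687 CPM in the siControl libraries. Over 5 libraries edgeR called 5 of them lower and Myf5 higher, beside 6.4% of all genes lower and 4.97% higher. Over 6 libraries edgeR called 0 of these 6, with 2 at an unadjusted p below 0.05. DESeq2 and limma-voom called 1 each, lower, beside the shares of all genes given above. The marker lists were named after their values were seen, so counts of their calls are no independent support. The part of these markers in the members' levels was not tested.

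Across the 6 libraries the protein-coding genes whose pattern lay nearest to that of Ckm (mean log2 CPM of at least 3, Euclidean distance between centred log2 CPM values) were Mybph at a distance of 0.17, Casq2 and Mymk at 0.23 each, Actc1 at 0.29 and Trim72 at 0.49. Casq2, a calcium store protein of the sarcoplasmic reticulum, held 21.5, 25.4 and 50.1 CPM in siUsf2 1 to 3, against 130, 128 and 165 CPM in siControl 1 to 3. Trim72, a protein of membrane repair, held 6.64, 7.10 and 14.9 CPM in siUsf2 1 to 3, against 32.4, 34.5 and 31.2 CPM in siControl 1 to 3. Because they were chosen for their nearness to Ckm over these libraries, their likeness to it is no finding.

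Gene structure also separated the library labelled siUsf2 3 from siUsf2 1 and 2. The median log2 of its level over theirs, log2(CPM + 1), was -0.37, -0.13, 0.02 and 0.24 across 4 equal groups of all tested genes, ordered from few to many exons per kilobase. Among the members this log2 ratio was 3.65 for Ckb, 1.29 for Mb, 0.97 for Pfkm, 0.96 for Ckm, 0.94 for Pygm, 0.90 for Eno3 and -0.37 for Pgam2. The members had 0.691 exons per kilobase for Ckb, 3.43 for Ckm, 3.57 for Pgam2, 4.69 for Mb, 6.22 for Pygm, 7.48 for Eno3 and 7.49 for Pfkm. Exons here are the blocks left after overlapping exons of all annotated transcripts were merged. For Ckb this left 2 blocks of 2895 bases in all, almost the whole gene. Its exons per kilobase may thus be understated, and its place in the trend over all genes cannot be judged. Ckb had the highest ratio, and its copy held 0 counts in that library. The part of gene structure in the members' levels was not tested.

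Promoters are shown for 4 of the members, since Usf2 binds the E-box CACGTG and muscle factors bind E-boxes such as CAGCTG. RefSeq windows of GRCm38.p6, from 250 bases before to 50 bases after a start, were found for 9 of the 10 members, Ampd1 excepted, as 15 windows in all. Capitals mark each CANNTG E-box and each match to the MEF2 motif, on either strand. Ckm (chr7:19410844-19411143, plus strand) and Pygm (chr19:6384158-6384457, plus strand) hold CAGCTG, and Pgam2 (chr11:5803747-5804046, minus strand) holds CAGCTG beside a MEF2 match. Pfkm (chr15:98092339-98092638, plus strand) is its farthest upstream start and the single member window with CACGTG. The Ckm window lies inside the GENCODE gene, whose annotated start is farther upstream.
Ckm: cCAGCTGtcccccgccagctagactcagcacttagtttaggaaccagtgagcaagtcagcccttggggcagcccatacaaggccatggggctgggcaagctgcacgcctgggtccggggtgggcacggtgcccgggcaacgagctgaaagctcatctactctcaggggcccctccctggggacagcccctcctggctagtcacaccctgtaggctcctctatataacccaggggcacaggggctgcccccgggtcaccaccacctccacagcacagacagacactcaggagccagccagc
Pygm: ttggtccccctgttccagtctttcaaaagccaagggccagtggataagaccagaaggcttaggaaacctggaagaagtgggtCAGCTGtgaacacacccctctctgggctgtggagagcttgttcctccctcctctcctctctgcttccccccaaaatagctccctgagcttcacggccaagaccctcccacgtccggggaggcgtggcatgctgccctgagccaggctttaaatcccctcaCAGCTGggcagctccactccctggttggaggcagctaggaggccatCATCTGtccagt
Pgam2: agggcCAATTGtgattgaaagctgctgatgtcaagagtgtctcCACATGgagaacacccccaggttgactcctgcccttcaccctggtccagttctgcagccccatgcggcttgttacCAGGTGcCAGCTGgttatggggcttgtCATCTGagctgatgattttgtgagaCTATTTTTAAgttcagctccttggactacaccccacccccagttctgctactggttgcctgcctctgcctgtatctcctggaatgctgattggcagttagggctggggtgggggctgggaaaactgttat
Pfkm: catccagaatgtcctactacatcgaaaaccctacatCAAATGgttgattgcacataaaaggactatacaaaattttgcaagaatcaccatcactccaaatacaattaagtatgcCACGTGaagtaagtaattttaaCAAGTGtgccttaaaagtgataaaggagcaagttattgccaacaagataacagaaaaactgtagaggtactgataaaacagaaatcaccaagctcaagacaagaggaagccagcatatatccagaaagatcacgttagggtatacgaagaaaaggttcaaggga

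The CACGTG motif, which overlaps the wider CANNTG, occurred in 1 of the 15 member windows, beside 7.15% of all 32851 promoter windows. In Pfkm it stood at position -136 from the start, and the other Pfkm windows lacked it. The wider CANNTG occurred in 12 of the 15 member windows, beside 72.3% of all windows, and CAGCTG, also within CANNTG, in 8 of the 15, beside 16.3% of all. The MEF2 motif occurred in 2, at position -29 of Ckb and -80 of Pgam2, beside 3.19% of all. TATAAA, which overlaps that Ckb match, occurred in 2, beside 13.6% of all. Of the 9 member genes with a window, 8 held CANNTG. Ckb, lower in siUsf2 1 and 2 but not among the promoters shown, held none. A match is a description of letters in the window, and several windows belong to the same gene.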

How the data were processed

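Whole-number counts per Ensembl gene, as the authors deposited them without normalization, were tested. A second table deposited by the authors, though named for TPM, holds CPM with no gene length in it: 100% of its values gave whole reads within 1e-06, equal to the deposited counts. The submitters' processing notes name mm10, FastQC, Trimmomatic, HISAT2, featureCounts and DESeq2, with no versions; the strand setting is not given in the sources used here. Symbols came from GENCODE M21 (GRCm38), which matched 52133 of 55414 identifiers.

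siUsf2 was compared with siControl by edgeR 4.0.16 in R 4.3.3 (filterByExpr, TMM, quasi-likelihood test, Benjamini-Hochberg over all tested genes, threshold 0.05), over 6 libraries and over 5 without the library labelled siUsf2 3. The test was checked on simulated counts. DESeq2 1.42.0, limma 3.58.1, other filters and normalizations, pseudogene counts added to parents (minimap2 2.31, at least 90% identity and 50% coverage), the reads recovered from CPM (added after seeing the data) and leaving out each library were alternatives. Ratios used counts + 0.5 and exact permutation tests. Totals were 3414565 to 17715250 counts, so 0 counts allow 0.169 to 0.879 CPM (3 counts); intervals cover counting error only. Replicate pairs differed beyond counting noise (chi-square per degree of freedom 4.38 to 103).

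The members and lists were chosen with earlier results of these data known. Beyond the members, genes were named by rule: Usf2, per list the 3 called genes with the smallest p in each direction over 5 libraries, the counterpart isoforms, and the 5 genes nearest to Ckm. Gatm and Gpi1 were named after their values were seen, as were the markers and the pseudogene copies.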

Additional observations from a re-analysis of the deposited data

How the results depend on the processing

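Over 6 libraries edgeR called 7 genes. The count was 4 with a 50-count filter, 4 with RLE, 3 with library size only, 3 with limma-trend on log2(CPM + 1) and 3 on log2(CPM + 0.1). It was 104 with limma-voom, 116 with no filter, 189 with pseudogenes added and 706 with DESeq2 (296 higher, 410 lower). It was 0 with a replicate block (874 genes at unadjusted p below 0.05), 0 with upper-quartile normalization (1835) and 0 with log2(CPM + 1) and no filter (2209). Leaving out a library gave 0 to 1957, with 1957 without siUsf2 3 and 0 otherwise (1065 to 1485 at unadjusted p below 0.05). Members called over 6 libraries were 4 with DESeq2, 3 with limma-voom, 1 with no filter, 2 with pseudogenes added, and 0 to 7 when a library was left out. Over 5 libraries the 1957 calls became 847 with log2(CPM + 1) and no filter, and 3989 with the replicate block. Leaving out a library gave 868 (without siUsf2 1) to 3560 (without siControl 3), with 1055 without siControl 1, 1144 without siControl 2 and 1171 without siUsf2 2. Upper-quartile normalization split the calls 1124 higher and 900 lower, against 855 and 1102. Of the 7 members, 5 to 7 were called in each of these 5-library settings. Pgam2 lost its call only with log2(CPM + 1) and no filter (adjusted p = 0.0583 by limma). That setting also ended the 5-library calls of Pfkm (limma adjusted p = 0.0776), Ppp1r3b (0.0955), Gapdh (0.0817), Ak4 (0.0786), Gpi1 (0.136) and Cd36 (0.182). The block changed no member's 5-library call. It ended the call of Cd36 (-0.87, adjusted p = 0.0712 by edgeR) and gave one to Pfkp (0.29, adjusted p = 0.00963 by edgeR). In that fit siControl 3 has no same-numbered siUsf2 library. Over 6 libraries, same-numbered libraries did not deviate together from their group means (correlations -0.074, -0.0049 and -0.073). The library labelled siUsf2 3 weighs on the siUsf2 means used there, so whether the numbers pair the libraries was not settled. Signs turned over 6 libraries for Ckb: -0.80 with limma-trend on log2(CPM + 0.1), -0.68 on log2(CPM + 1), filtered or not, -1.61 with voom, -1.17 with pseudogenes added, -1.02 with the block, and -2.14 to 0.80 when a library was left out. They turned for Pfkm: -0.13 with voom, -0.012 with the block, and -0.32 to 0.23 when a library was left out. Leaving out a library also turned the sign of other genes. Over 6 libraries the range was -0.75 to 0.058 for Gamt, -0.35 to 0.0072 for Gapdh, -0.020 to 1.78 for Eno1 and -0.58 to 0.020 for Eno1b. Over 5 it was -0.019 to 0.15 for Ampd2, -0.13 to 0.067 for Eno1 and -0.030 to 0.076 for Eno1b. In the 5 libraries Eno1 was also 0.0031 with log2(CPM + 0.1), 0.0030 with log2(CPM + 1), filtered or not, and 0.018 with upper-quartile normalization, and Eno1b was -0.037 with the block. The cause of these differences was not tested. Depth limits Ckmt1, Ckmt2, Ampd1 and, in the siUsf2 libraries, Mb.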
